A study of Danio rerio with 16 samples.

Results

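Osteoblasts of the uninjured zebrafish caudal fin were set against all other cells of the same fin by their DNA methylation. Whole genome bisulfite sequencing (WGBS), which converts unmethylated cytosines and reads the methylated ones as C, was used on 2 libraries of sp7+ cells and 2 libraries of sp7- cells at 0 days post-amputation (dpa), out of 16 libraries in the series. All 4 came from adult Tg(sp7:EGFP) fish, in which sp7 regulatory regions drive EGFP. The study describes this EGFP as present in differentiating and mature osteoblasts of the bony fin rays. The sp7+ cells were sorted as EGFP-positive and the sp7- cells as EGFP-negative from dissociated uninjured fins pooled per replicate, so the sp7- group was a mixture of every other cell type of the fin, and an osteoblast without EGFP would have been counted in it. Neither group was injured or treated.

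The genome was divided into 500 bp tiles, and the level of a tile was the percent of its CpG calls (reads summed over its CpGs) that were methylated. Of 2631724 tiles with a listed CpG, 1926788 (73.2%) had 10 or more calls in each of the 4 libraries and were compared. They held 84.5% of the 23997221 listed CpGs. Differences are given in percentage points (points) as sp7+ minus sp7- cells, so a negative one means less methylation in osteoblasts.

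In vertebrates most CpGs are methylated. Promoters rich in CpGs are usually free of methylation in every cell type, whereas enhancers with few CpGs are often partly or fully demethylated in the cells that use them. The gene sp7, also called osterix, encodes a zinc finger transcription factor needed for osteoblast differentiation. Fin rays are dermal bone lined by osteoblasts, with fibroblasts, vessels, nerves and epidermis around them. No annotation of GRCz10, the genome build of the files, was used here. Regions are therefore given by position as deposited, without gene names, and the identity of the sorted cells was not checked at marker genes. Whether positions count from 0 or from 1 was not settled.

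Depth was uneven between replicates. The number of calls was 350819557 and 220754053 in the sp7+ libraries and 388305930 and 198736279 in the sp7- libraries, which is 14.6× and 9.20× mean coverage of a CpG in sp7+ cells and 16.2× and 8.28× in sp7- cells. Reads had no molecular identifiers, so depth limits the counting error only. The genome-wide level was 79.6% ± 0.961 in sp7+ cells and 78.6% ± 0.453 in sp7- cells (SD, n = 2 each), a difference of 1.03 points. A two-sided exact permutation test gave p = 0.333, the smallest that 2 libraries against 2 can give. Without the deeper sp7+ library, replicate 1, the difference was 0.348 points.

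Local differences ran mostly in one direction. With limma's moderated test on transformed levels, 6450 tiles were lower and 871 were higher in sp7+ cells. To be called, a tile had to pass a threshold of 0.05 after Benjamini-Hochberg adjustment over all tiles and differ by more than 25 points. These counts are 0.335% and 0.0452% of all tiles tested, so 88.1% of the called tiles were lower in osteoblasts. By size alone, 13671 tiles were more than 25 points lower and 4697 were more than 25 points higher. The test called 47.2% of the former and 18.5% of the latter, so the 88.1% also holds this unequal rate of calling. The median difference was -34.5 points among the lower tiles and 28.1 points among the higher tiles, against 0.405 points over all tiles. Of all tiles, 87.7% lay within 10 points of no difference.

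The imbalance grew with the size of the difference among tiles at an adjusted p under 0.05. At an adjusted p under 0.05 with no limit on size, 10646 tiles were lower and 5783 higher, a share of 64.8% lower. At an unadjusted p under 0.05 the balance was the other way, with 78029 lower and 103197 higher. Beyond 40 points, again at an adjusted p under 0.05, there were 1970 lower tiles and 45 higher ones. In the lower direction the largest difference was -90.4 points and in the higher direction 66.9 points.

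A call required a large difference over the same 4 libraries, so their order at called tiles is given as a description. Both sp7+ libraries lay below both sp7- libraries in 6449 of the 6450 lower tiles, and above them in 870 of the 871 higher tiles. Over all tested tiles both lay below in 16.2% and above in 21.3%. The calls of single CpGs make up the level of their tile and were therefore part of the choice too. Of 31824 CpGs with 5 or more calls in each library in lower tiles, 84.9% had both sp7+ libraries below both sp7- libraries. In higher tiles 85.5% of 5199 such CpGs had both sp7+ libraries above. Over the 11838926 such CpGs of all tested tiles the shares were 12.7% below and 15.6% above.

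How many tiles were called depended on single libraries and on the weights. Without sp7- replicate 1, the deepest library, 1838 lower and 343 higher tiles were called, without sp7+ replicate 1 there were 3904 and 629, and without sp7- replicate 2 there were 3890 and 554. Of the tiles called from all 4 libraries, 26.2% to 69.0% of the lower and 17.6% to 47.0% of the higher ones were called again with 1 library left out. The number that switched direction was 0, but where the groups do not overlap, leaving out 1 library cannot reverse a difference. With a replicate block, a term that pairs same-numbered libraries, 9876 lower and 2121 higher tiles were called. In that fit limma replaced each tile's own variance by a value shared by tiles of like level, so a tile's own spread had no part in its p. The methods describe both populations as sorted from the fins of a replicate, but the labels do not say that same-numbered libraries share a pool, so the fit without the block is the one given. With libraries weighted equally whatever their calls, 0 tiles passed limma's adjusted p in either direction, while 13043 lower and 4237 higher tiles were beyond 25 points at an unadjusted p under 0.05.

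Pairs of single libraries gave the baseline. Among the 1112689 tiles with 50 or more calls in each library, a difference beyond 25 points was found in 0.598% to 0.826% of tiles for the 4 pairs of an sp7+ with an sp7- library, against 0.131% for the sp7+ replicates and 0.128% for the sp7- replicates. The direction was more uneven between cell types than within them. Each cell type pair had more tiles lower than higher in the sp7+ library, 0.452% to 0.518% against 0.146% to 0.308%, while within a cell type the replicates split into 0.0572% lower and 0.0742% higher for sp7+ cells and 0.0543% and 0.0741% for sp7- cells. At this depth both directions stood apart from the replicates. Over all tested tiles, where shallow tiles enter, the separation was smaller, with 1.87% to 2.79% for cell type pairs against 1.62% and 1.63% for replicates. There the lower direction stood apart from the replicates and the higher direction did not. Cell type pairs had 1.19% to 1.51% of tiles lower and 0.673% to 1.27% higher, against 0.713% to 0.922% of tiles in a single direction for replicates. Beyond 60 points, again over all tested tiles, only the lower direction stood apart. Cell type pairs had 440 to 551 lower tiles, against 92 for the sp7+ and 68 for the sp7- replicates. Higher tiles numbered 44 to 121 in cell type pairs, a range that holds the 94 of the sp7+ and the 70 of the sp7- replicates.

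**Figure D1:**
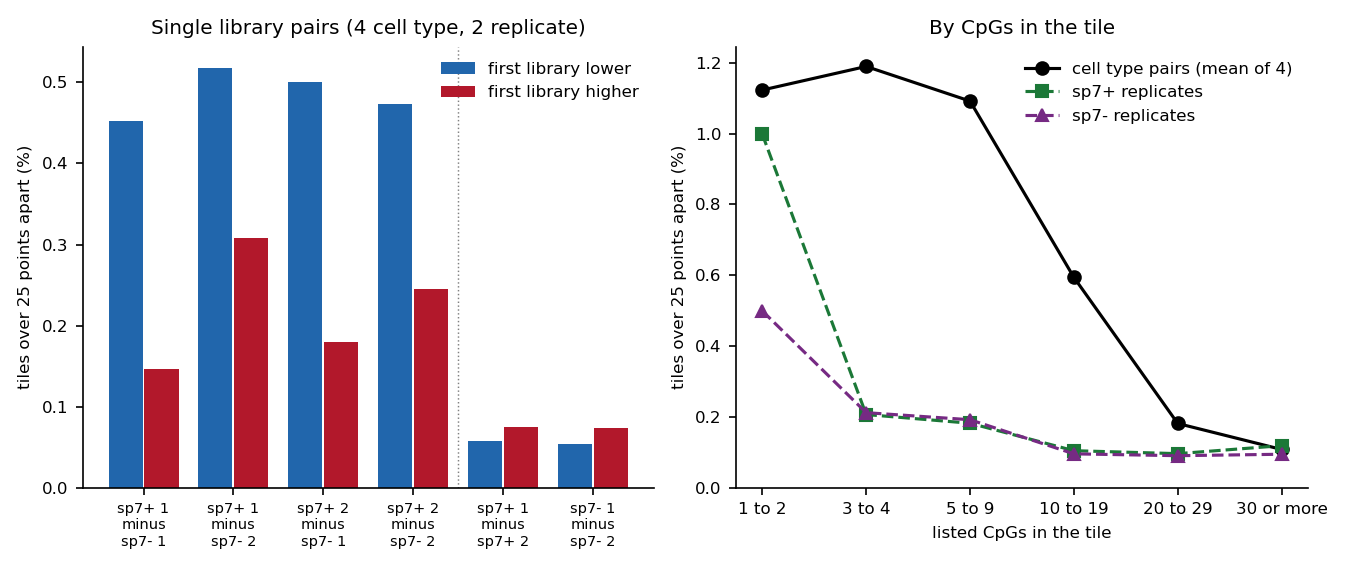
Tiles over 25 points apart between 2 single libraries, in percent of the 1112689 tiles with 50 or more calls in each library. Left, bars for the 4 pairs of an sp7+ minus an sp7- library and, right of the dotted line, the 2 replicate pairs, by the sign of the difference; right, the same share (both signs) by listed CpGs in the tile, where cell type pairs reach 1.09% and replicates 0.182% and 0.192% at 5 to 9 CpGs and the 3 lines meet at 30 or more CpGs.

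Tiles lower in osteoblasts were mostly partly methylated in the other cells and kept some methylation in osteoblasts. In a pool of cells a partial level can mean that each cell is partly methylated or that some cells are fully methylated, and these cannot be told apart. Their mean level was 26.0% and 27.0% in the sp7+ libraries and 63.7% and 63.5% in the sp7- libraries. In sp7+ cells 1057 of the 6450 (16.4%) were under 10% and 53.3% were under 25%. In sp7- cells 4462 (69.2%) were between 25% and 75% and the remaining 1988 (30.8%) were over 75%. Over all tiles these shares were 24.4% and 71.1%. A tile called lower by more than 25 points could not be under 25% in sp7- cells. A switch between under 25% in sp7+ cells and over 75% in sp7- cells was found in 216 tiles (3.35%).

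Tiles higher in osteoblasts were also mostly partly methylated in the other cells. Their mean level was 80.3% and 80.8% in the sp7+ libraries, close to the 77.8% and 77.6% of those libraries over all tiles, and 51.3% and 50.1% in the sp7- libraries. In sp7+ cells 637 of the 871 (73.1%) were over 75%, and in sp7- cells 825 (94.7%) were between 25% and 75%. Over all tiles these shares were 72.5% and 24.4%. A tile called higher by more than 25 points could not be over 75% in sp7- cells, so the call rule set part of this. A full switch, over 75% in sp7+ cells and under 25% in sp7- cells, occurred in 0 tiles. Only 10 were under 10% in sp7- cells.

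Coverage moved with the call. In lower tiles the calls of both sp7+ libraries were 0.846 times those of both sp7- libraries (median), against 1.00 in higher tiles and 0.963 over all tiles. The part of this in the differences was not tested. Thinned to the calls of the shallowest library, the 4 libraries gave 5126 lower and 784 higher tiles.

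The share of tiles called varied with their number of CpGs. The share called lower was 0.293% at 1 to 2 listed CpGs, 0.377% at 3 to 4, 0.456% at 5 to 9, 0.262% at 10 to 19, 0.0532% at 20 to 29 and 0.0162% at 30 or more. Without sp7- replicate 1 it was 0.0236% at 1 to 2, 0.0512% at 3 to 4, 0.107% at 5 to 9, 0.118% at 10 to 19 and 0.0410% at 20 to 29 CpGs. With any 1 library left out, the 2 sparsest classes were below that of 10 to 19 CpGs. The closest case was without sp7+ replicate 2, at 0.182% and 0.264% against 0.269%. The median calls per library of a tile were 67.5 at 5 to 9 CpGs and 478 at 30 or more, and the part of depth in these shares was not tested. In the higher direction the share stayed between 0.0244% and 0.0514% over the same 6 classes with all 4 libraries. With any 1 library left out it was lowest at 1 to 2 CpGs (0% to 0.00857%) and highest at 10 to 19 CpGs (0.0294% to 0.0608%). The balance of called tiles differed with CpG number. At 5 to 9 CpGs 89.9% of them were lower, at 20 to 29 CpGs 68.5% were, and in the densest class 7 tiles were lower and 14 higher of 43256.

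Pairs of single libraries were compared in the same classes, at 50 or more calls in each library. With 1 to 2 CpGs only 601 tiles were left, and cell type pairs differed beyond 25 points in 1.12% of them (0.333% lower and 0.790% higher in the sp7+ library), against 0.998% for sp7+ and 0.499% for sp7- replicates. With 3 to 4 CpGs the shares were 1.19% for cell type pairs, against 0.206% for sp7+ and 0.212% for sp7- replicates. Cell type pairs differed in 1.09% of tiles with 5 to 9 CpGs, against 0.182% for sp7+ and 0.192% for sp7- replicates. With 30 or more CpGs the values were 0.108% for cell type pairs, against 0.119% for sp7+ and 0.0943% for sp7- replicates, so the cell type pairs lay between the replicate pairs there. The share of lower tiles was larger at 5 to 9 than at 10 to 19 CpGs on 25 of 25 chromosomes. Without sp7- replicate 1 the order of these 2 classes turned over the whole genome, as given above.

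By starting level, differences gathered at intermediate methylation. Whole uninjured fin, 2 libraries that had no part in the test, sorted the tiles into classes. Tiles at 30% to 50% in whole fin were called lower in 2.14% of cases and higher in 0.194%. On both sides of that class the lower share dropped, to 0.930% at 10% to 30% and 0.939% at 50% to 70%. It was 0.185% at 70% to 90%, 0.0312% at 90% or more and 0.0207% under 10%. Whole fin contains both cell types.

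Classes by the level in sp7- cells, which the test itself used, placed the same peak at 30% to 50% with 2.07% lower. The same limit of the call rule held there. In these classes tiles at 90% or more in sp7- cells still gave 479 lower tiles, 0.0872% of 549207. Replicates too differed most at intermediate levels. In the whole fin class of 30% to 50%, cell type pairs differed beyond 25 points in 6.25% (lower) and 2.26% (higher) of tiles, against 3.94% for sp7+ and 4.19% for sp7- replicates in both directions together.

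**Figure D2:**
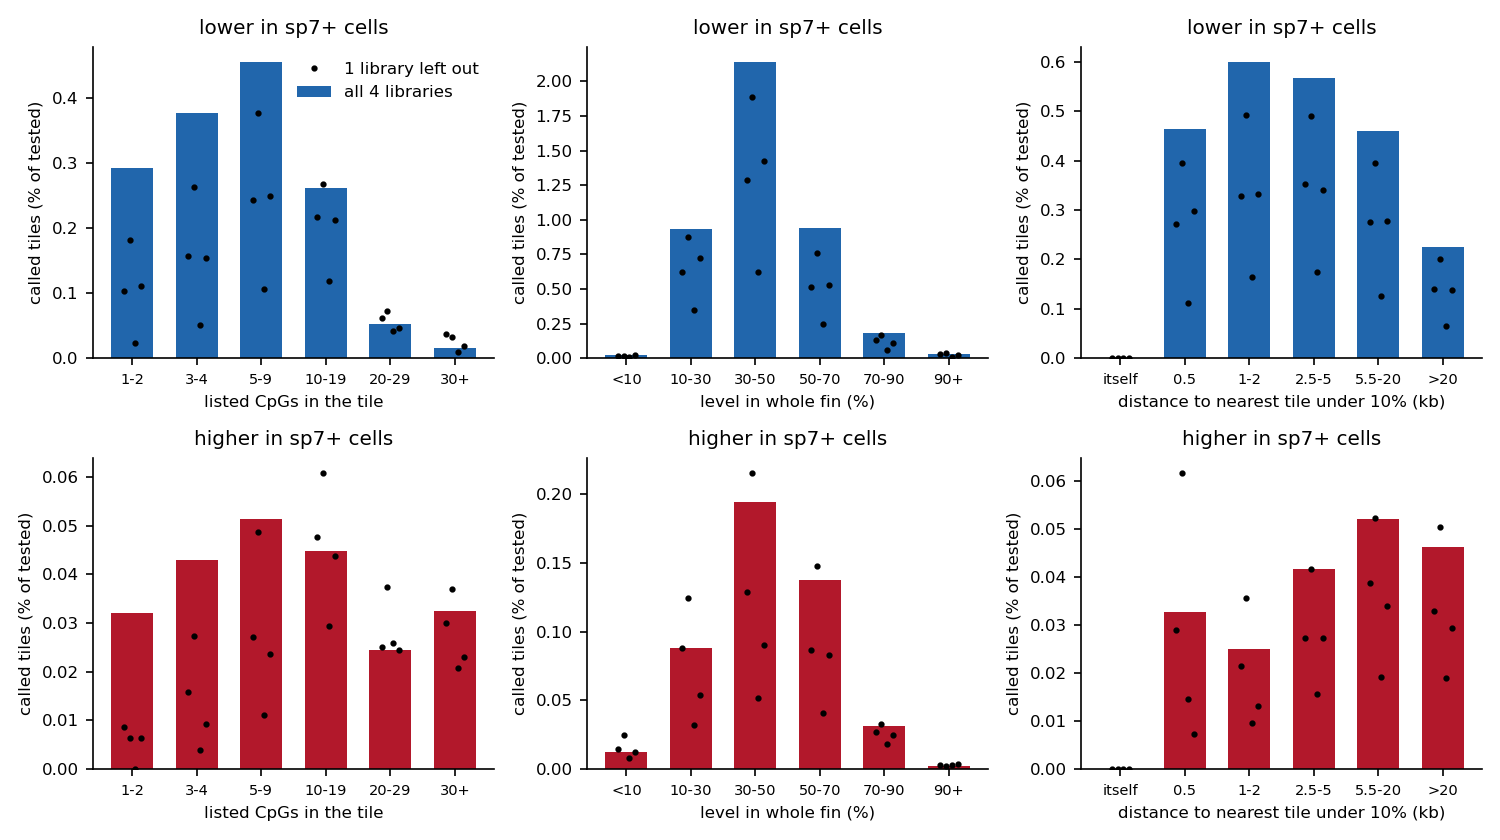
Called tiles in percent of the tiles tested in each class of listed CpGs, of mean level in whole fin and of distance to the nearest tile under 10% in all 4 libraries. Top row, lower in sp7+ cells; bottom row, higher in sp7+ cells; bars are all 4 libraries and each point leaves 1 library out. Lower tiles peak at 5 to 9 CpGs (0.456%), at 30% to 50% in whole fin (2.14%) and at 1 to 2 kb (0.600%), but without sp7- replicate 1 at 10 to 19 CpGs (0.118%), and at 2.5 to 5 kb without sp7+ replicate 1 (0.353%), sp7- replicate 1 (0.175%) or sp7- replicate 2 (0.341%).

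Lower tiles were more frequent near unmethylated DNA, but most lay farther away. Within 5000 bp of a tile under 10% in all 4 libraries lay 24.0% of the lower tiles. For all tiles this share was 16.5%, the low tiles themselves included. The 46013 tiles under 10% in all 4 libraries were unmethylated in both cell types, and no tile of this kind could be called. Among tiles next to one of them (500 bp away) 0.464% were lower in sp7+ cells. This share was 0.600% at 1000 to 2000 bp, 0.568% at 2500 to 5000 bp, 0.459% at 5500 to 20000 bp and 0.226% farther than 20000 bp. The median distance was 13500 bp for lower tiles, against 24500 bp over all tiles.

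Higher tiles showed no such gradient. Their share was 0.0326% at 500 bp, 0.0250% at 1000 to 2000 bp, 0.0417% at 2500 to 5000 bp, 0.0520% at 5500 to 20000 bp and 0.0461% farther out, and their median distance was 25500 bp. On 25 of 25 chromosomes the share of lower tiles at 1000 to 5000 bp exceeded that beyond 20000 bp, and for higher tiles this was so on 9. For lower tiles the farthest class was also below each of the 4 nearer ones with any 1 library left out.

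The gradient of lower tiles was also present within most classes of CpG number and of level. Within tiles of 5 to 9 CpGs the share was 0.686% at 1000 to 2000 bp and 0.774% at 2500 to 5000 bp, against 0.306% beyond 20000 bp. Within tiles of 10 to 19 CpGs it was 0.532% and 0.417% at these distances, against 0.188%. Within tiles at 30% to 70% in whole fin it was 2.11% and 2.03%, against 0.808%. Under 30% in whole fin the gradient was absent, with 0.940% and 1.13% against 1.07%. Tiles of 30 or more CpGs held too few lower tiles to tell. Their counts were 0 of 914 and 1 of 2420 at these distances, against 2 of 25637 beyond 20000 bp.

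The lower tiles were narrow. At the called tiles the level averaged 26.5% in sp7+ cells and 63.6% in sp7- cells. In the tiles 500 bp away it was 62.1% and 61.8% in sp7+ cells on the 2 sides, and 71.6% on both in sp7- cells. At 1000 bp the values were 74.6% in sp7+ cells on both sides and 77.3% and 77.2% in sp7- cells, and the mean difference of the tiles at 10000 bp was -0.377 and -0.511 points. The sp7- cells thus had a shallow dip at the same place. A tile called lower had to be under 75% in sp7+ cells, so the call rule set part of the sp7+ dip.

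Around higher tiles the dip belonged to the sp7- cells. The level at 500 bp was 78.3% and 77.0% in sp7+ cells, near the 80.6% at the called tile, and 71.6% and 69.9% in sp7- cells, against 50.7% at the called tile. Most runs of called tiles were 1 tile long, where a run ended at any neighbour that was untested or not called. Of 5893 runs of lower tiles 5384 were single tiles, 467 were pairs and 42 had 3 or more, with 4 the longest. Of 845 runs of higher tiles 820 were single, 24 were pairs and 1 had 3.

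Called tiles were nevertheless found near each other more often than over all tested tiles. Of the tested tiles 500 bp before and after a lower tile, 11.5% and 11.6% were called lower too, against 0.335% of all, and around higher tiles 3.87% and 3.91% were called higher, against 0.0452%. Another lower tile lay within 5000 bp of 32.6% of the lower tiles and of 4.13% of all tested tiles, and within 50000 bp of 68.9% and 27.7%. For higher tiles these shares were 8.73% against 0.639% and 20.3% against 6.02%.

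**Figure D3:**
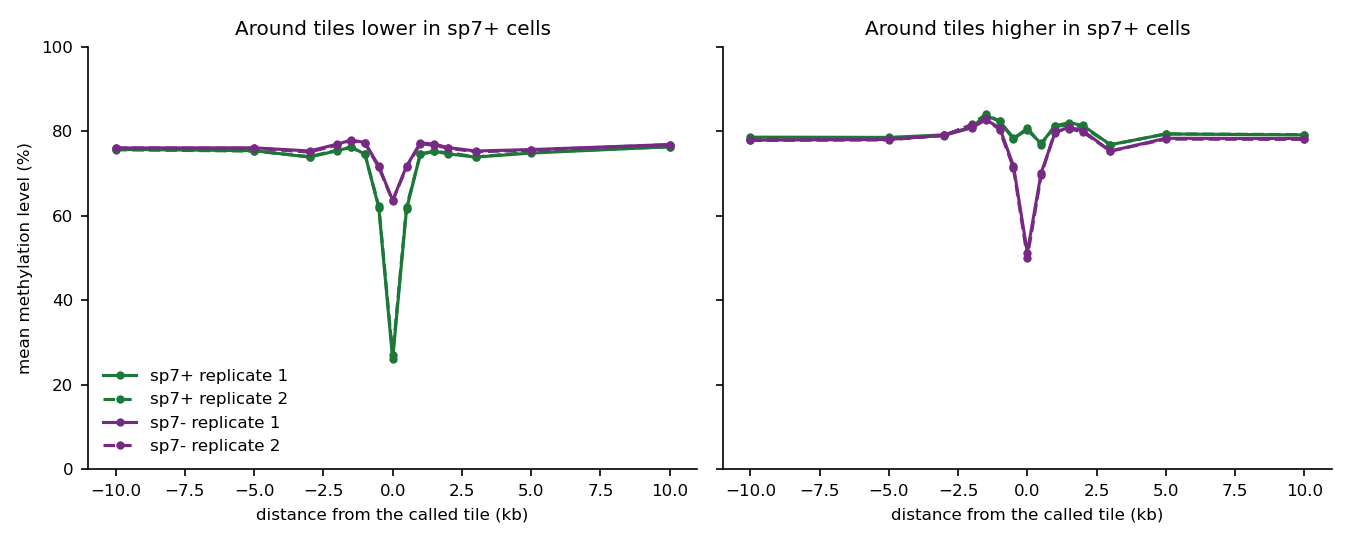
Mean methylation level (%) in each of the 4 libraries against the distance (kb) from tiles called lower (left) and higher (right) in sp7+ cells. The level of sp7+ cells drops to 26.5% within a tile width at lower tiles. At higher tiles the sp7- cells drop to 50.7% while sp7+ cells stay at 80.6%. The call rule set part of both drops.

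By chromosome the differences were spread widely. The share of lower tiles ran between 0.267% on chromosome 18 and 0.397% on chromosome 3, with 0.396% on chromosome 21 and 0.386% on chromosome 7 close to it. Higher tiles ran between 0.0267% on chromosome 21 and 0.0745% on chromosome 22, with 0.0705% on chromosome 23. On each of the 25 chromosomes lower tiles outnumbered higher ones. Chromosome 21 had 267 lower and 18 higher tiles of 67434.

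Chromosome 3 stayed above chromosome 18 with any 1 library left out, at 0.130% to 0.350% against 0.0792% to 0.251%. These chromosomes were picked as the extremes of the same data, and each such fit reuses most of the libraries. Their order is therefore given as a description. Chromosomes 3 and 18 were not always the extremes. Without sp7+ replicate 1 chromosome 22 (0.255%) passed chromosome 3 (0.237%), and without sp7- replicate 1 chromosome 4 (0.0641%) was below chromosome 18 (0.0792%). In the higher direction chromosome 22 stayed above chromosome 21, both picked in the same way, at 0.0260% to 0.0797% against 0.0104% to 0.0386%. Here too other chromosomes passed them. Without sp7+ replicate 1 chromosome 13 (0.0553%) was above chromosome 22 (0.0416%), and without sp7+ replicate 2 chromosome 6 (0.0241%) was below chromosome 21 (0.0386%). In 1350 windows of 1 Mb with 200 or more tested tiles, 148 had no lower tile and 787 no higher tile. The window with most lower tiles, on chromosome 21 from 11000000, had 32 of 1376 tiles. The next, on chromosome 5 from 30000000, had 29 of 1477.

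**Figure D4:**
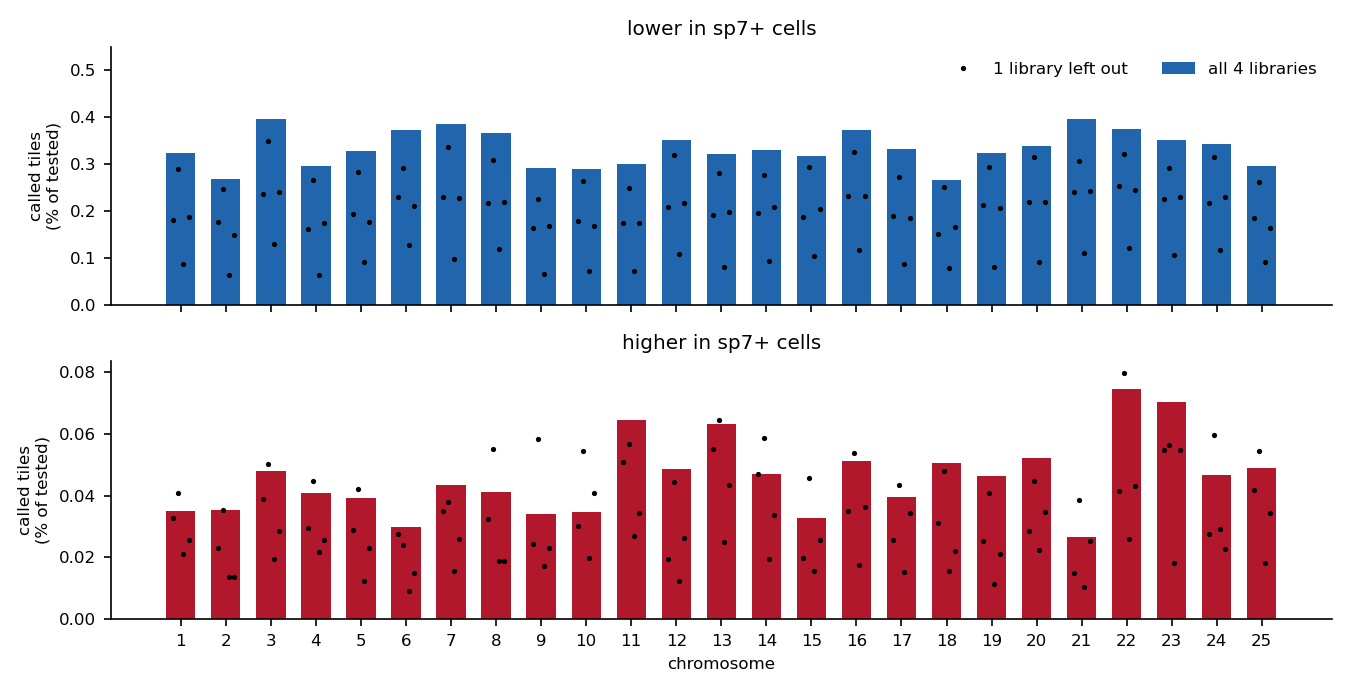
Called tiles in percent of the tiles tested on each of the 25 chromosomes, lower (top) and higher (bottom) in sp7+ cells. Bars are all 4 libraries and each point leaves 1 library out. The lower share spans 0.267% to 0.397% and the higher share 0.0267% to 0.0745%.

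The regions with the largest differences were the extreme end of the called tiles. They were the 8 called tiles of each direction with the largest difference that had 5 or more CpGs, 30 or more calls in each library and groups apart, and that lay more than 5 kb from one already named. The differences were thus part of the choice and are given as a description. Over all called tiles the median difference was -34.5 points for lower and 28.1 points for higher ones. The 8 lower regions differed by -78.2 to -70.5 points, held 5 to 13 CpGs and lay on 8 chromosomes, 3000 to 22000 bp from the nearest tile under 10%. All of their 36 CpGs with 5 or more calls in each library had both sp7+ libraries below both sp7- libraries. The region named lower 4 below held 0 of these CpGs, and those named lower 1 and lower 7 held 3 each.

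The largest, lower 1 (chr20:20488000-20488499, 8 CpGs), was at 16.7% and 2.33% in sp7+ cells, against 87.1% and 88.2% in sp7- cells. It rested on 30 and 43 calls in sp7+ cells and 31 and 34 in sp7- cells, the least of the 8. Lower 2 (chr4:11599500-11599999, 7 CpGs) was at 19.4% and 14.8% in sp7+ cells, against 88.8% and 92.1% in sp7- cells. Here the calls were 124 and 61 in sp7+ cells and 215 and 101 in sp7- cells, and all 7 CpGs were apart.

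Lower 3 (chr15:31089000-31089499, 8 CpGs) was at 9.60% and 15.4% in sp7+ cells, against 82.3% and 89.1% in sp7- cells. The tile after it was at 83.2% and 80.3% in sp7+ cells, against 97.2% and 100% in sp7- cells, and the tile 1500 bp after it was called again, at 42.4% and 28.8% against 94.5% and 88.4%. The tile 1000 bp after lower 3 was not among the tested tiles. Lower 6 (chr9:45827000-45827499, 10 CpGs) was at 22.1% and 19.8% in sp7+ cells, against 90.6% and 93.8% in sp7- cells. The CpG at 45827124 was at 18.5% and 5.26% in sp7+ cells, against 88.6% and 100% in sp7- cells.

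The limma adjusted p was 5.07e-05 for lower 1, 8.6e-07 for lower 2, 5.36e-07 for lower 3 and 3.79e-07 for lower 6. The other 4 were lower 4 (chr21:30740500-30740999), lower 5 (chr17:41003500-41003999), lower 7 (chr10:35178000-35178499) and lower 8 (chr2:3210000-3210499). Over all 8, single libraries ran between 2.33% and 25% in sp7+ cells, against 80.6% and 95.2% as the limits in sp7- cells.

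The 8 higher regions had differences of 41.4 to 66.9 points, each smaller in size than those of the 8 lower regions. Higher 1 (chr23:45160000-45160499, 8 CpGs) was at 76.2% and 73.7% in sp7+ cells, against 6.47% and 9.68% in sp7- cells, with a limma adjusted p of 8.6e-07. It was the end of the longest run of higher tiles, 3 tiles over 1500 bp (chr23:45159000-45160499) with 48 CpGs, whose mean level was 76.9% and 74.4% in sp7+ cells, against 18.5% and 22.7% in sp7- cells. This stretch was unmethylated to partly methylated in the other cells and had sharp borders. The tile after it was at 100% and 100% in sp7+ cells, against 96.3% and 94.1% in sp7- cells, and the tile before it at 99.2% and 100%, against 93.5% and 94.9%.

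Higher 2 (chr12:37334000-37334499, 6 CpGs) was at 76.9% and 71.2% in sp7+ cells, against 21.7% and 17.1% in sp7- cells, with a limma adjusted p of 0.000464. Higher 4 (chr20:2488500-2488999) held the most listed CpGs of the 16 regions, 28, but only 5 of them had 5 or more calls in each library. It had wide replicate spread, at 57.0% and 74.1% in sp7+ cells, against 26.8% and 14.7% in sp7- cells. The libraries did not cover the same CpGs alike. At 2488875 there were 17 and 3 calls in sp7+ cells, against 18 and 0 in sp7- cells. The other 5 were higher 3 (chr19:41665000-41665499), higher 5 (chr19:22830500-22830999), higher 6 (chr17:45961500-45961999), higher 7 (chr1:48677500-48677999) and higher 8 (chr21:36863500-36863999). In the 8 regions 34 of 35 CpGs with 5 or more calls in each library had both sp7+ libraries above both sp7- libraries.

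**Figure D5:**
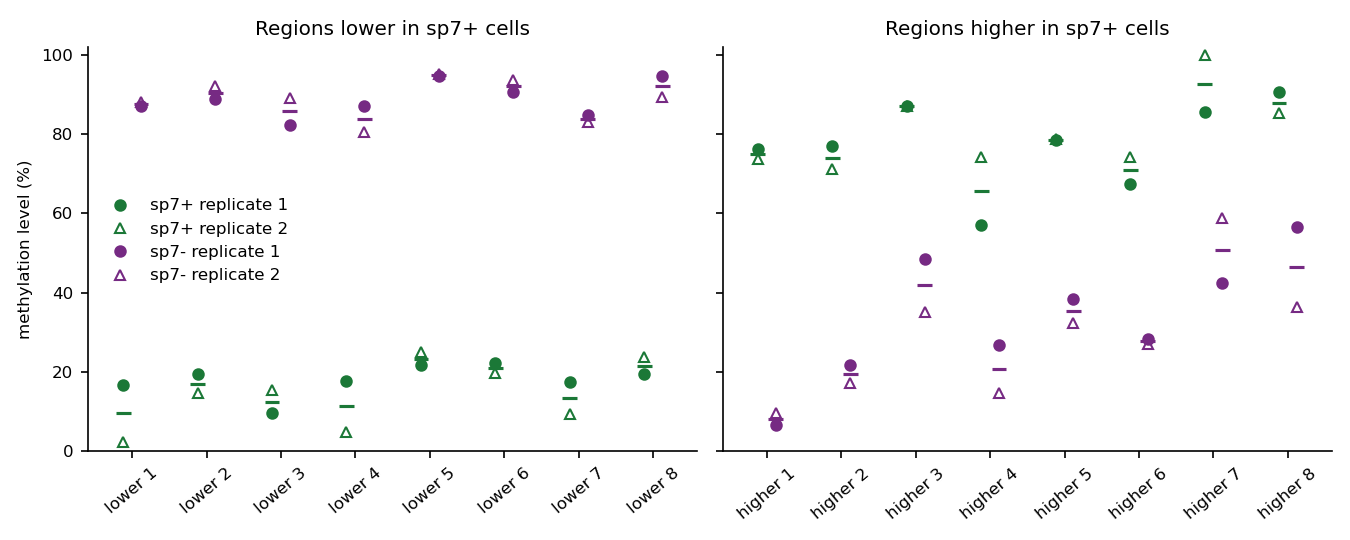
Methylation level (%) of the 8 lower and the 8 higher regions with the largest differences in the sp7+ (green, left) and sp7- (purple, right) libraries; circles are replicate 1, triangles replicate 2 and bars the mean. Lower regions sit at 2.33% to 25% in sp7+ libraries, against 80.6% to 95.2% in sp7- libraries, and higher regions spread over 57.0% to 100% in sp7+ libraries, against 6.47% to 58.9% in sp7- libraries.

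The longest runs of lower tiles had 4 tiles over 2000 bp. There were 6 of this length, with mean differences of -42.6 to -31.9 points, and the 3 with the most CpGs are given here. On chromosome 18 (chr18:15191500-15193499, 46 CpGs) the mean level was 40.6% and 48.8% in sp7+ cells, against 76.7% and 76.6% in sp7- cells. The run on chromosome 21 (chr21:45867500-45869499, 43 CpGs) was at 45.0% and 35.9%, against 71.7% and 73.0%, and the run on chromosome 17 (chr17:26948000-26949999, 37 CpGs) at 20.9% and 28.0%, against 61.2% and 63.2%. In the other 3 runs, on chromosomes 8, 10 and 14, the means ran between 15.3% and 24.9% in sp7+ cells, against 57.9% and 63.5% as the limits in sp7- cells. After the run of 3 named above came 24 pairs of higher tiles, each 1000 bp long, of which the 2 with the most CpGs both lay on chromosome 23. One (chr23:35819500-35820499, 38 CpGs) was at 49.7% and 53.2% in sp7+ cells, against 20% and 24.9% in sp7- cells, and the other (chr23:36016500-36017499, 38 CpGs) at 74.4% and 66.8%, against 41.7% and 41.8%.

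Whole fin, outside the test, lay between the sorted groups and near the sp7- cells at lower tiles. In the 6152 lower tiles with 10 or more calls in both whole fin libraries, these averaged 58.6% and 57.5%, against 26.6% in sp7+ cells and 63.2% in sp7- cells. In 92.0% of these tiles the whole fin was closer to the sp7- than to the sp7+ level, against 54.0% of all tiles with such calls. At higher tiles it was less one-sided. There the whole fin averaged 61.9% and 60.7%, against 80.0% in sp7+ cells and 50.5% in sp7- cells. In 65.1% of higher tiles the whole fin was closer to the sp7- level, nearer to the 54.0% of all tiles. In the 8 lower regions the whole fin libraries ran between 59.1% and 95.1%, and in the 8 higher regions between 7.69% and 90.6%. Higher 1 was at 15% and 7.69% in whole fin, against 6.47% and 9.68% in sp7- cells. Higher 2 was at 90.6% and 68.1% in whole fin, against 21.7% and 17.1% in sp7- cells.

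Sorted libraries of regenerating fins at 4 dpa, also outside the test, were read at the same tiles. Of 6374 lower tiles with calls there 91.3% had both sp7+ libraries below both sp7- libraries, against 18.4% of all tiles, and of 855 higher tiles 65.6% had both above, against 19.5%. The median difference was smaller than at 0 dpa in both directions, -24.7 points for lower and 13.7 points for higher tiles, and its cause was not tested. The tiles had been chosen by their differences at 0 dpa. All 8 lower regions stood apart at 4 dpa and 5 of the 8 higher ones did. Higher 4 was at 33.5% and 40.5% in sp7+ cells at 4 dpa, against 68.9% and 26.8% in sp7- cells, so its groups overlapped. Higher 3 overlapped at 63.2% and 43.6% in sp7+ cells, against 67.4% and 53.6% in sp7- cells. In higher 3 and higher 4 the sp7+ mean was thus below the sp7- mean at 4 dpa. Higher 7 overlapped with the sp7+ mean above, at 77.6% and 77.3%, against 81.5% and 39.7%.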

How the data were processed

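WGBS was performed on sorted sp7+ and sp7- cells (2 libraries each at 0 dpa). The authors trimmed reads with Trim Galore 0.4.1, mapped them with Bismark 0.16.1 and Bowtie2 to a GRCz10 genome with the strain's own variants, discarded PCR duplicates and excluded CpGs that a variant destroys. The deposited values are counts of reads and of methylated reads per CpG, not normalized. Calls were summed over 500 bp tiles with 10 or more calls in each of the 4 libraries. Levels were transformed by the arcsine, weighted by calls with a spread beyond counting of 0.00498, and fitted by cell type, without a replicate block, in Python 3.11.15 with numpy 2.4.6. Variances were shrunk with limma 3.58.1 (R 4.3.3), with 19.3 prior against 2 residual degrees of freedom. Most of the weight in a tile's variance thus came from the other tiles. A call needed 0.05 after Benjamini-Hochberg adjustment over all tiles and a difference beyond 25 points. DSS, which the study used, was not run. The test was also run on calls simulated for a single chromosome, with a larger spread than that of the data. The outcome of that run is not given here. The 2 libraries of a group came from separate pools as far as the methods tell, and p-values measure the spread between these libraries only. Regions named were called tiles with 5 or more CpGs, 30 or more calls in each library and groups apart, the first 8 per direction by difference and not within 5 kb of one named, plus the 3 longest runs (by tiles, then by CpGs). The comparison, classes and rules were chosen with earlier results of these data known. Planned gene and marker lists were not used here, for want of an annotation of GRCz10. Whole fin libraries at 1, 2 and 4 dpa were not used.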

Additional observations from a re-analysis of the deposited data

How the results depend on the processing

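Filters of 5 calls and of 20 calls, all 8 sorted libraries in the fit, levels shifted to one mean, thinning to the shallowest library and removal of tiles with excess coverage kept both counts within 1.5 times. The share lower was 87.0% with 20 calls, 89.0% with shifted levels and 86.7% after thinning. Other choices moved the counts of lower and higher tiles and the share lower further: 10535, 1937 and 84.5% with 250 bp tiles, 2703, 236 and 92.0% with 1000 bp tiles, 10477, 5560 and 65.3% beyond 10 points, 1970, 45 and 97.8% beyond 40 points, and 3429, 351 and 90.7% with a quasi-binomial model. Without coverage weights 0 lower and 0 higher tiles passed limma's adjusted p, with 157325 tiles at an unadjusted p under 0.05. With a replicate block, which pairs same-numbered libraries, 9876 lower and 2121 higher tiles were called (82.3% lower), with a shared variance in place of each tile's own. Replicate differences of the cell types correlated at 0.0891 over 1926788 tiles, and no label states that a number marks a shared pool of fins, so the block was kept as an alternative. With 1 library left out, the counts ran between 1838 and 5598 for lower and between 343 and 933 for higher tiles, the share lower between 84.3% and 87.5%, and the genome-wide difference between 0.348 and 1.71 points. That difference was 0.438 points over CpGs with 5 or more calls and 0.231 over tested tiles. Cell type pairs differed beyond 25 points 1.47 times as often as replicate pairs, 2.09 times with 20 calls, 2.03 times beyond 40 points and 1.42 times after thinning. The causes of these shifts were not tested. Depth limits shallow tiles with few CpGs most, and 2 libraries per group limit every p here.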
